A study of Homo sapiens with 6 samples.

Results

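The mitochondrial ribosome, or mitoribosome, translates the few proteins encoded by mitochondrial DNA, which are core subunits of the respiratory chain complexes. Its RNA is made inside mitochondria, but all of its proteins are encoded in the nucleus, made in the cytosol and imported. The genes described here are the human protein-coding genes of GENCODE release 29 whose symbol is MRPS or MRPL followed by a number and at most 1 letter, a rule that uses names and no measured value. It gave 78 genes of the 58780 in the tables and of the 19969 protein-coding ones. By their known place in the particle, 51 belong to the large subunit, which forms peptide bonds, and 26 to the small subunit, which reads the messenger RNA. MRPS36 is now known as KGD4, a component of the 2-oxoglutarate dehydrogenase complex, and was assigned to neither. Of the 77 others, 46 were assigned a bacterial counterpart and 31 were not. MRPS18A and MRPS18B, though related to bacterial S18, were counted among the 31, and MRPS18C among the 46.

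RNA came from HCT116, an established line of human colorectal carcinoma cells. One group of 3 libraries was treated with auxin for 16 h and the other, also of 3, received DMSO, the vehicle, and the labels number biological replicates 1 to 3 in each. Auxin is used to degrade proteins fused to a degron, but the labels name no degron-tagged protein, transgene or clone. Whether the DMSO cells carry a tag is not given in the sources used here. Total RNA was depleted of ribosomal RNA before stranded, paired-end libraries were made.

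The libraries held 234038000 to 625895000 expected counts, and replicate 1 was the deepest in both groups. All 78 genes passed the filter on low counts, and the lowest count of any of them in any library was 894. EPCAM, KRT8, KRT18, KRT19 and CDH1, markers of epithelial cells, were between 36.5 and 982.0 TPM in each library, and CDX2 was between 2.03 and 4.69. The differentiation markers VIL1 and LGALS4 were at 0.02 TPM or less. The summed level of 10 markers of blood, endothelial and fibroblast cells was 1.36 to 2.83 TPM in DMSO and 0.67 to 1.55 TPM after auxin, most of it COL1A1, with PTPRC and CD3E at 0. In bulk RNA, fewer cells with a transcript and less transcript per cell cannot be told apart.

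After auxin the mitoribosomal protein genes moved in both directions, with more increases than decreases but larger steps among the decreases, and 38 of the 78 did not pass the test. In edgeR's quasi-likelihood test with Benjamini-Hochberg adjustment over all genes, 29 of the 78 were higher and 11 were lower at an adjusted p under 0.05. The background was 25.4% of the 19725 genes tested for higher calls and 26.9% for lower calls, against 37.2% and 14.1% of the members. The median log2 fold change was 0.20 over the members and 0.02 over all genes tested; without DMSO replicate 1 the member median was 0.10, and without auxin replicate 3 it was 0.11. No member rose by as much as 2-fold, while 6 fell by more than that, namely MRPL38, MRPS34, MRPL28, MRPL43, MRPL24 and MRPS18A. With offsets corrected for transcript GC, MRPL28 and MRPS18A stayed called but at -0.84 and -0.74, below 2-fold, and MRPS34 was at -1.08 instead of -1.96. MRPS18A was also below 2-fold with upper-quartile factors, at -0.93, and on log2(TPM + 1), at -0.81. Over all genes, 6.55% were called and at least 2-fold higher and 13.3% called and at least 2-fold lower. In each of the 40 calls the CPM ranges of the groups were separate. The same direction in 3 of 3 same-numbered pairs of libraries follows from that and is not further support.

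**Figure D1:**
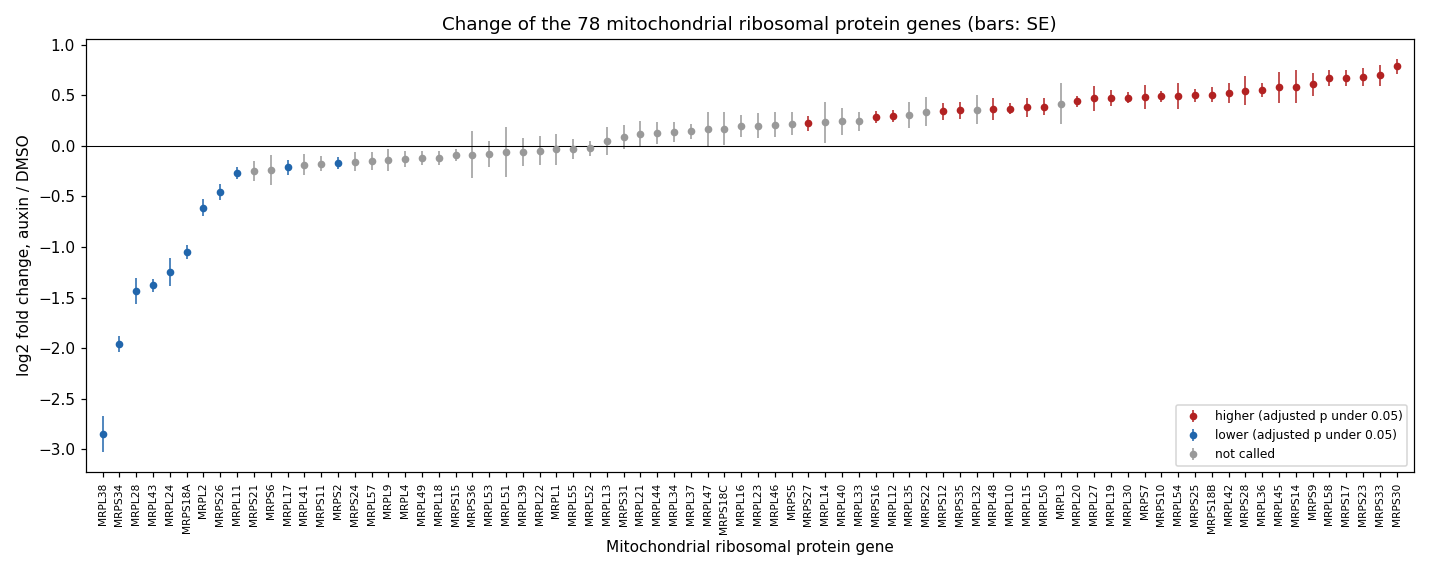
Log2 fold change of each of the 78 genes after 16 h of auxin against DMSO, in order of size, with bars for the standard error. Red points were called higher, blue points lower and grey points neither at an adjusted p under 0.05; the 6 points on the far left lie below -1 and the highest, MRPS30, is at 0.79.

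With replicates 2 and 3 alone, which are closer in depth, 42 members were higher and 16 lower, beside 30.2% and 31.8% of all genes. With the replicate number as a block, 46 members were higher and 22 lower, beside 35.5% and 34.4% of all genes, and all 40 of the calls above were among them. On log2(TPM + 1), limma-trend called 6 members higher and 6 lower, beside 4.92% and 15.0% of all genes. Upper-quartile scaling, in which the median of all genes was 0.15 instead of 0.02, gave 41 higher and 9 lower, beside 33.1% and 22.4% of all genes. The share of calls that were higher was then 82.0% among members and 59.7% among all genes, instead of 72.5% and 48.5%. With scaling by library size alone the median of all genes was -0.06, 26 members were higher and 17 lower, and these shares were 60.5% and 40.9%. With offsets corrected for transcript GC it was -0.08, 29 members were higher and 18 lower, beside 22.8% and 32.3% of all genes, and the shares were 61.7% and 41.3%.

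The summed level of the members was 4605, 3657 and 4034 TPM in DMSO replicates 1, 2 and 3 and 4171, 3922 and 4366 TPM after auxin, so the groups overlapped. Their share of all counts was 0.385%, 0.391% and 0.419% in DMSO and 0.418%, 0.441% and 0.458% after auxin, with overlap between DMSO replicate 3 and auxin replicate 1. Per length, MRPL3 and MRPL51 were the most abundant members. MRPL3, a core protein near the site of peptide bond formation, was at 208 ± 20.4 TPM in DMSO and 263 ± 69.8 TPM with auxin (mean ± SD of 3 libraries). MRPL51, which has no bacterial counterpart, was at 233 ± 21.9 and 205 ± 24.6 TPM. Over both groups together the third was MRPS30, at 101 ± 9.44 and 149.8 ± 10.6 TPM. In DMSO alone MRPL33, MRPL42 and MRPS22 lay above it, at 120.1 ± 9.93, 111 ± 8.61 and 102.6 ± 7.91 TPM. Within libraries, MRPL3 was above MRPL51 in all 3 after auxin, at 192, 265 and 332 beside 178, 209 and 227 TPM. In DMSO it was below MRPL51 in replicates 1 and 3 and above it in replicate 2. The difference between MRPL3 and MRPL51 was not tested.

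The strongest decrease was in MRPL38, a large subunit protein without a bacterial counterpart (ENSG00000204316.12, GRCh38 chromosome 17, 75898643 to 75905413, minus strand). Its CPM, the count scaled to a common library size with TMM factors, was 39.4, 31.6 and 32.3 in DMSO and 5.97, 3.90 and 4.41 after auxin. Every auxin library was far below every DMSO library. The log2 fold change was -2.85 (SE 0.18, edgeR adjusted p 2.24e-05), or 7.21-fold lower.

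MRPS34, a small subunit protein without a bacterial counterpart that is needed for a stable small subunit, was next (ENSG00000074071.14, chromosome 16, 1771890 to 1773155, minus strand). It had 16.4, 16.8 and 17.8 CPM in DMSO and 4.44, 4.13 and 4.52 CPM after auxin, and the libraries within each group were tightly spaced. The log2 fold change was -1.96 (SE 0.08, edgeR adjusted p 4.37e-06). MRPL28, the counterpart of bacterial L28 (ENSG00000086504.16, chromosome 16, 366969 to 371289, minus strand), went from 9.46, 10.4 and 12.1 to 3.71, 3.75 and 4.38 CPM. Its log2 fold change was -1.43 (SE 0.13, edgeR adjusted p 9.05e-05). MRPS34 and MRPL28 are the only members on chromosome 16.

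MRPL43, a large subunit protein without a bacterial counterpart (ENSG00000055950.16, chromosome 10, 100969458 to 100987515, minus strand), went from 44.5, 46.9 and 48.7 CPM to 17.3, 17.8 and 18.7 CPM. The log2 fold change was -1.38 (SE 0.06, edgeR adjusted p 6.52e-06). On the opposite strand it shares 149 exonic bases with TWNK, which encodes the mitochondrial DNA helicase and rose by 0.92 (SE 0.09, edgeR adjusted p 0.000141). It also shares 1170 with SEMA4G, whose log2 fold change was -1.92 (SE 0.14). MRPL24, the counterpart of bacterial L24, an early assembly protein (ENSG00000143314.12, chromosome 1, 156737303 to 156741590, minus strand), went from 21.7, 28.5 and 30.0 to 10.1, 11.4 and 12.4 CPM. Its log2 fold change was -1.24 (SE 0.14, edgeR adjusted p 0.000304).

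Decreases below 2-fold were seen in 5 members. MRPL2, the counterpart of bacterial L2, which contacts the catalytic centre (ENSG00000112651.11, chromosome 6, 43054029 to 43059806, minus strand), fell from 35.4, 40.7 and 40.5 to 23.9, 25.2 and 27.3 CPM, a log2 change of -0.61 (SE 0.08, edgeR adjusted p 0.00073). MRPS26, a small subunit protein (chromosome 20), changed by -0.45 (SE 0.08, edgeR adjusted p 0.00266). MRPL11, the counterpart of bacterial L11 at the binding site of translation factors (chromosome 11), changed by -0.27 (SE 0.06, edgeR adjusted p 0.00535). MRPL17 (chromosome 11) changed by -0.21 (SE 0.08, edgeR adjusted p 0.0492) and MRPS2 (chromosome 9) by -0.17 (SE 0.06, edgeR adjusted p 0.0362).

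On log2(TPM + 1), limma-trend lost all 5 of these calls, with adjusted p of 0.0583 for MRPL2, 0.086 for MRPS26, 0.104 for MRPL11, 0.581 for MRPL17 and 0.453 for MRPS2. The calls of MRPL17 and MRPS2 were also lost with DESeq2 (adjusted p 0.0956 and 0.0988), with upper-quartile factors (edgeR adjusted p 0.24 and 0.455) and when single libraries were left out, and that of MRPS2 without a filter on low counts (0.0712). MRPS2 stayed past the threshold only without DMSO replicate 2, with an edgeR adjusted p of 0.065 to 0.135 in the other 5 fits. MRPL17 stayed past it without DMSO replicate 1 and without auxin replicate 3, with 0.109 to 0.13 in the other 4. With offsets corrected for transcript GC, the direction of MRPS2 and MRPS26 turned to higher, with log2 fold changes of 0.52 (edgeR adjusted p 0.00249) and 0.37 (edgeR adjusted p 0.0375).

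Among increases, MRPS30 led (ENSG00000112996.10, chromosome 5, 44808925 to 44820428, plus strand), a protein that sits in the large subunit despite its name. It had 122, 134 and 132 CPM in DMSO and 205, 235 and 231 CPM after auxin. Every auxin library was above every DMSO library, and the log2 fold change was 0.79 (SE 0.07, edgeR adjusted p 0.000126). MRPS33, a small subunit protein without a bacterial counterpart (ENSG00000090263.15, chromosome 7, 141002610 to 141015228, minus strand), rose from 19.5, 23.3 and 24.6 to 33.5, 38.1 and 37.5 CPM. Its log2 fold change was 0.70 (SE 0.10, edgeR adjusted p 0.00105). MRPL58, also known as ICT1, which releases peptides from stalled ribosomes (ENSG00000167862.9, chromosome 17, 75012670 to 75021261, plus strand), rose from 39.0, 40.8 and 44.7 to 60, 69.0 and 69.2 CPM. Its log2 fold change was 0.67 (SE 0.08, edgeR adjusted p 0.000429).

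The 5 other members among the 8 leading increases were 1.49- to 1.6-fold higher. MRPS23, MRPS17, MRPS9 and MRPS14 are small subunit proteins, the last 3 with bacterial counterparts, and their log2 fold changes were 0.68, 0.67, 0.61 and 0.59 (SE 0.09, 0.08, 0.11 and 0.16). MRPL45, which lies at the exit of the peptide tunnel and helps to hold the ribosome at the inner membrane, rose by 0.58 (SE 0.15). Their edgeR adjusted p ranged from 0.000443 to 0.0205. The calls of MRPL45 and MRPS14 were lost without auxin replicate 2 (edgeR adjusted p 0.0553 and 0.0676) and without auxin replicate 3 (0.0585 and 0.0725). That of MRPL45 was also lost with offsets corrected for transcript GC (log2 fold change 0.26, edgeR adjusted p 0.107). On log2(TPM + 1), limma-trend lost MRPS23 at 0.22 (adjusted p 0.264), MRPS17 at 0.43 (adjusted p 0.0751) and MRPS14 at 0.23 (adjusted p 0.295). In all 8 genes every auxin library was above every DMSO library.

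**Figure D2:**
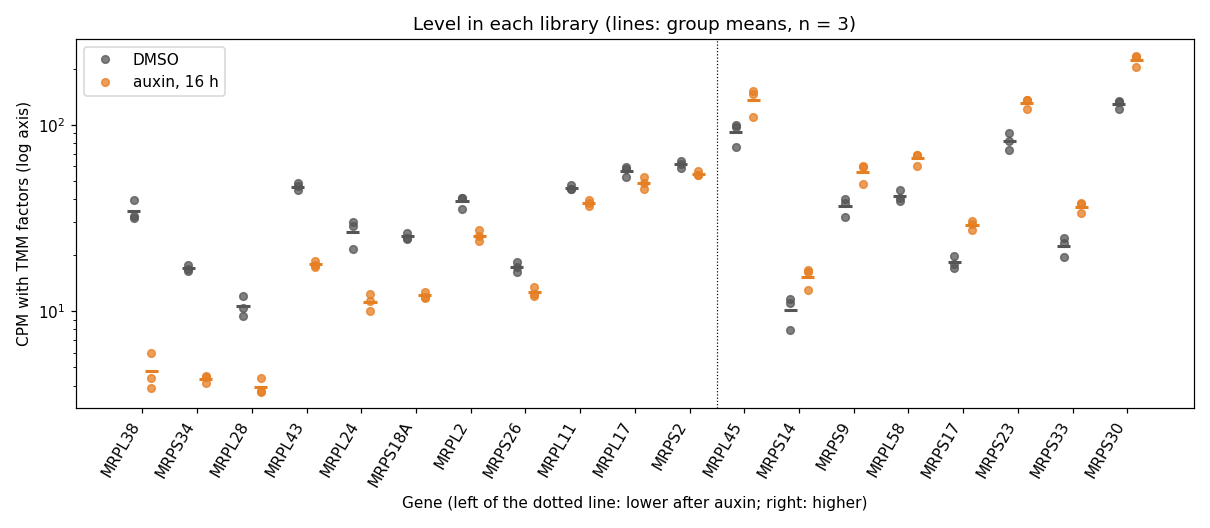
CPM in each library, on a log axis, for the 11 members called lower (left of the dotted line) and the 8 with the largest increases (right), with grey points for DMSO, orange points for auxin and short lines for group means. The 2 sets of points do not overlap in any of the 19 genes; the gap is widest for MRPL38 and narrowest for MRPL17 and MRPS2.

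Auxin and DMSO libraries had separate CPM ranges in 42 members, of which 30 were higher and 12 lower. The same held for 30.0% and 30.4% of all genes tested. Beside the called genes these included MRPL33, higher, and MRPS11, lower.

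Small and large subunit genes both contained increases and decreases. Of the 26 small subunit genes, 14 were higher and 3 lower (median log2 fold change 0.31), and of the 51 large subunit genes 15 were higher and 8 lower (median 0.14). Genes with a bacterial counterpart gave 16 higher and 6 lower of 46 (median 0.20), and those without gave 13 and 5 of 31 (median 0.21). With the replicate block the counts were 17 and 8 for the small subunit, 29 and 14 for the large subunit, 28 and 14 for genes with a bacterial counterpart and 18 and 8 for those without. The difference between these subsets was not tested. Over all genes tested, 25.4% were higher and 26.9% lower, or 35.5% and 34.4% with the replicate block. Summed over small subunit genes the level was 1052 to 1374 TPM in DMSO and 1149 to 1271 TPM after auxin. Over large subunit genes it was 2594 to 3221 and 2763 to 3084 TPM, so both sums overlapped.

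Of the 3 MRPS18 paralogs, which are related to bacterial S18, 1 fell, 1 rose and 1 did not pass the test. MRPS18A, located in the large subunit (ENSG00000096080.11, chromosome 6, 43671303 to 43687791, minus strand), had 24.7, 24.6 and 26.4 CPM in DMSO and 11.8, 12 and 12.7 CPM after auxin. Its log2 fold change was -1.05 (SE 0.07, edgeR adjusted p 2.37e-05). MRPS18B, a small subunit protein (ENSG00000204568.11, chromosome 6, 30617709 to 30626395, plus strand), rose from 48.2, 52.5 and 55.6 to 68.3, 76.2 and 77.6 CPM, a log2 change of 0.51 (SE 0.08, edgeR adjusted p 0.00124, but limma-trend adjusted p 0.0564 on log2(TPM + 1)). MRPS18C, at the place of the bacterial protein (chromosome 4), had a CPM of 25.1, 32.1 and 35.1 in DMSO and of 27.6, 37.2 and 39.0 with auxin. Its groups overlapped, and its log2 fold change of 0.17 (SE 0.16) had an edgeR adjusted p of 0.43, or 0.00253 with the replicate block.

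Other members named by rule did not pass the test. MRPS36 had a CPM of 8.22, 12.5 and 14.0 in DMSO and of 8.23, 12.7 and 11.7 with auxin, a log2 change of -0.09 (SE 0.23, edgeR adjusted p 0.78). MRPL51 had 52.1, 80.0 and 90.9 CPM and 50.7, 80.3 and 82.7 CPM, a log2 change of -0.06 (SE 0.25, edgeR adjusted p 0.855). MRPL3 had 200, 281 and 297 CPM and 258, 382 and 399 CPM, a log2 change of 0.42 (SE 0.20, edgeR adjusted p 0.127). In these 3 genes replicate 1 was the lowest library of both groups. MRPL3 had an adjusted p of 5.45e-06 with the replicate block and 0.0171 without auxin replicate 1.

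Of 8 pairs of members whose starts lie within 1 Mb of each other, 5 had both genes called, 3 in opposite directions and 2 in the same one. The latter were MRPL2 and MRPS18A, 628 kb apart and both lower, and MRPL58 and MRPS7, 249 kb apart and both higher. On chromosome 17, 7 of 8 members were higher, beside 25.4% of all genes tested on any chromosome. The share over all genes of chromosome 17 was not counted. The only member there that fell was MRPL38, whose start lies 644 kb from that of MRPS7 (log2 fold change 0.48) and 893 kb from that of MRPL58 (0.67). On chromosome 6, MRPS18A (-1.05) lies 439.7 kb from MRPL14 (0.23, not called, but edgeR adjusted p 0.00247 with the replicate block), and MRPL2 (-0.61) lies 842 kb from MRPS10 (0.49, called higher). MRPL46 and MRPS11 start 0.034 kb apart on opposite strands of chromosome 15. MRPL46 had a CPM of 19.9, 23.1 and 25.2 in DMSO and of 22.3, 27.8 and 28.7 with auxin. MRPS11 had 27.0, 28.2 and 31.2 CPM and 24.3, 25.9 and 26.3 CPM. Their log2 fold changes were 0.21 (SE 0.12, edgeR adjusted p 0.201) and -0.18 (SE 0.07, edgeR adjusted p 0.0874), and both passed with the replicate block, at 0.00144 and 0.00421. The pairs described and chromosome 17 were chosen after their values were seen.

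By their medians, the members called lower had GC-rich transcripts, few intron bases and many genes around them, with exceptions for each trait. For each gene the representative transcript was the one with the best annotation rank and the longest coding sequence. Transcript GC was 57.3% (median) in the 11 members called lower, 46.5% in the 29 called higher and 49.6% in the 38 not called, beside 49.7% over the 14145 protein-coding genes tested that had a sequence. Total intron length had medians of 2614, 7698 and 8139 bases, beside 24073 bases over protein-coding genes. The number of other protein-coding genes starting within 500 kb was 31, 12 and 11 (medians), beside 12. For MRPL38 and MRPS34 transcript GC was 64.6% and 64.8%, for MRPS30 46.4% and for MRPS33 41.7%. MRPS34 lies among 51 protein-coding genes within 500 kb and MRPS30 beside 1. Exceptions among the members called lower were MRPL17 with a GC of 47.7%, MRPS18A with 15427 intron bases and MRPS2 with 13 genes within 500 kb.

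Across the 78 members, the log2 fold change had a Pearson correlation of -0.45 (Spearman -0.42) with transcript GC, beside -0.41 (-0.36) across protein-coding genes. With the logarithm of total intron length the values were 0.32 (0.31) for members and 0.11 (0.19) for protein-coding genes. With the number of genes within 500 kb they were -0.44 (-0.39) and -0.35 (-0.31). These correlations are across genes measured in the same 6 libraries and not across independent replicates. GC and intron length were themselves correlated, at -0.51 across members. Within single same-numbered pairs of libraries the correlation with GC was -0.44, -0.47 and -0.44, and that with intron length 0.32, 0.32 and 0.30.

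In tertiles set over all protein-coding genes, 20 members lay in the GC-rich tertile above 55.2%. Of these, 3 were higher and 8 lower, or 15% and 40%, beside 13.3% and 55.4% of protein-coding genes in that tertile. Of the 22 members in the tertile up to 44.9%, 10 were higher, or 45.5%, beside 34.7%. In the middle tertile 16 of 36 members were higher and 3 lower, or 44.4% and 8.33%, beside 35.5% and 23.7%. Most members have short introns: 55 of 78 lay in the lowest tertile of intron length, up to 12177 bases. There, 20 members were higher and 10 lower, or 36.4% and 18.2%, beside 21.0% and 42.1% of protein-coding genes.

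**Figure D3:**
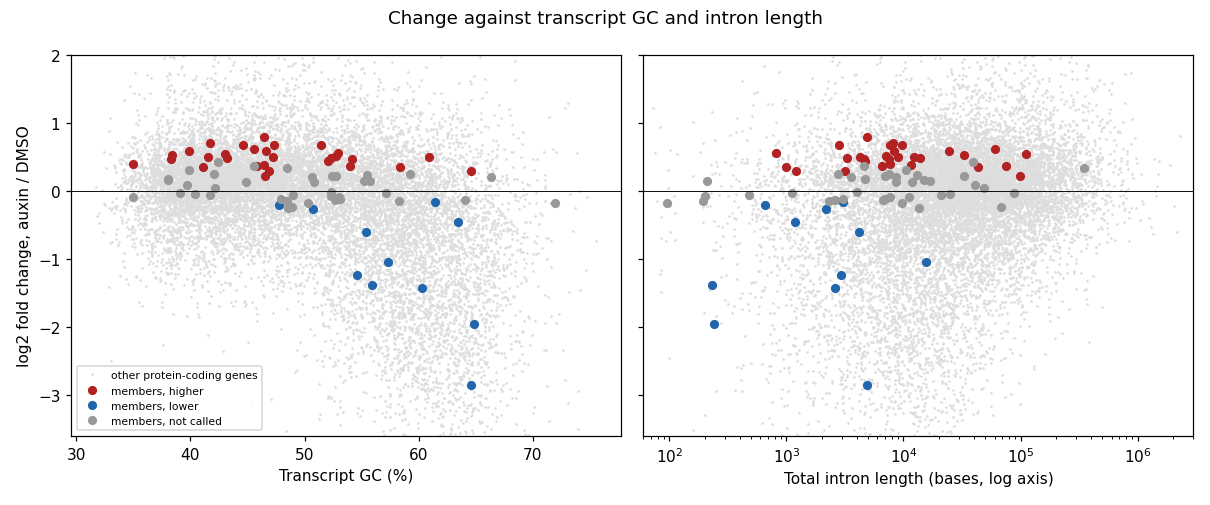
Log2 fold change of the members (red, called higher; blue, lower; dark grey, not called) and of other protein-coding genes (light grey) against transcript GC in percent (left) and total intron length in bases on a log axis (right). The 6 members below -1 all have a GC of 54.6% or more; 198 other genes lie outside the plotted fold changes, and 401 genes without an intron are not in the right panel.

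Promoters of the 2 members with the largest decreases and the 2 with the largest increases are shown because these genes mark the ends of the range. Each runs from 250 bases before to 50 bases after the start given by RefSeq, on GRCh38.p14, 5′ to 3′ on the strand of the gene. The RefSeq starts of MRPL38 and MRPS33 lie 529 and 276 bases from the outermost start in GENCODE, and those of MRPS34 and MRPS30 lie 21 and 22 bases from it. Capitals mark matches, on either strand, to 6 short motifs known for the factors in brackets, CCGGAAG (ETS factors), GGGCGG (SP1), TGCGCA (NRF1), CACGTG (E-box factors), AAGATGG (YY1) and CCAAT (NFY). No matches overlapped in these promoters.
MRPL38, chr17:75904835-75905134, minus strand: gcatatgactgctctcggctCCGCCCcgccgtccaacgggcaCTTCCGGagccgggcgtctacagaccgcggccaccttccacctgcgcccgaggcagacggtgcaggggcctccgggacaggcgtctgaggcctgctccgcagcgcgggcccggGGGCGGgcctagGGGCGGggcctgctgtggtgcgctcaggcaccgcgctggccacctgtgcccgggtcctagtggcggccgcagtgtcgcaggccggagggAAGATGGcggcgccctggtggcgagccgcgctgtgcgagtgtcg
MRPS34, chr16:1773085-1773384, minus strand: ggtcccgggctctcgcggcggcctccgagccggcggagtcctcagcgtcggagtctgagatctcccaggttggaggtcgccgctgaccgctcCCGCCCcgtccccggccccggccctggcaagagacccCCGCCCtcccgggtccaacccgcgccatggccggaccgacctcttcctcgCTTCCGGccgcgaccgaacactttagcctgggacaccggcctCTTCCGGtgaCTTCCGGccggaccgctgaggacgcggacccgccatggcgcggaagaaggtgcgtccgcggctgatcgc
MRPS33, chr7:141014903-141015202, minus strand: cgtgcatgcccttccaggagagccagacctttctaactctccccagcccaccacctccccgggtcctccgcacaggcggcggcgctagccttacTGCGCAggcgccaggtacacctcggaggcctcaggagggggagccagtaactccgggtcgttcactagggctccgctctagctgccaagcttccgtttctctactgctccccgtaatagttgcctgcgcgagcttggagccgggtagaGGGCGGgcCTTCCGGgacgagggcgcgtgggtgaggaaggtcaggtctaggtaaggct
MRPS30, chr5:44808697-44808996, plus strand: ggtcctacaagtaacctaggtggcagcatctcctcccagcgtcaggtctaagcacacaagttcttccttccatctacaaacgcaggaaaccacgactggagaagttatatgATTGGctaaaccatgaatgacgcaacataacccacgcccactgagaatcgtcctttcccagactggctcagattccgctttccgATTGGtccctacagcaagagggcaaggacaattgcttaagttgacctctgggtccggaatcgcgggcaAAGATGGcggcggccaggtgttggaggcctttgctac
The promoters of MRPL38 and MRPS34 had a GC content of 75.3% and 73.7%, with 3 and 2 matches to GGGCGG. Those of MRPS33 and MRPS30 had 65.3% and 52.7%, with 1 and 0 matches. MRPS34 held 3 matches to CCGGAAG, MRPL38 and MRPS33 held 1 each and MRPS30 had no match, while AAGATGG was present in MRPL38 and MRPS30.

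A RefSeq promoter was found for 69 members. CCGGAAG was present in 29 of them, or 42.0%, beside 14.4% of 14896 protein-coding promoters of the same length. AAGATGG was present in 33.3% beside 6.48%, TGCGCA in 20.3% beside 10.9%, GGGCGG in 59.4% beside 59.7%, CACGTG in 10.1% beside 8.92% and CCAAT in 29% beside 36.4%. By call, CCGGAAG was present in 11 of 26 promoters of members called higher, 6 of 10 called lower and 12 of 33 not called. For AAGATGG the numbers were 12, 3 and 8, and for GGGCGG 13, 8 and 20. A match describes the letters in this window only.

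Annotated transcripts of the members were tested in the same way. Of 499 transcripts, 392 passed the filter, and 46 were higher and 30 lower, beside 8.43% and 11.2% of the 83072 transcripts tested. With the replicate block the numbers were 78 and 43. Without DMSO replicate 2, auxin replicate 2 or auxin replicate 3 only 26, 27 and 26 were higher, and without DMSO replicate 3 only 19 were lower. The shares over all transcripts were not counted for these other fits, so these numbers have no background beside them. At the gene level the block also raised the calls over all genes, to 35.5% higher and 34.4% lower. Among transcripts annotated as protein-coding, 38 were higher and 23 lower, and among those annotated as retained introns 3 were higher and 5 lower. Retained-intron transcripts took 6.52% ± 0.169 of the members' TPM in DMSO and 5.65% ± 0.587 with auxin (mean ± SD of 3 libraries). Over all protein-coding genes the shares were 5.02% ± 0.426 and 4.86% ± 0.311, and the difference from the members was not tested. The lowest DMSO library of the members, at 6.37%, was above their highest auxin library, at 6.24%.

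For the strongest decreases, the 2 most abundant transcripts fell together. MRPL38-212, a retained-intron transcript, fell from 19.7, 11.5 and 12.5 to 3.91, 1.68 and 2.24 TPM, and the coding MRPL38-201 from 18.5, 11 and 11.7 to 1.10, 0.75 and 0.92 TPM. Their log2 fold changes were -2.33 (SE 0.23) and -3.70 (SE 0.12). MRPS34-203, a retained-intron transcript, and the coding MRPS34-202 changed by -1.77 (SE 0.16) and -2.54 (SE 0.23). The 2 most abundant transcripts of MRPL28 changed by -1.65 and -1.29 and those of MRPL24 by -1.25 and -1.34. The edgeR adjusted p of these 8 transcripts ranged from 0.000111 to 0.0102. The 2 most abundant transcripts of MRPL43, MRPL43-213 and MRPL43-206, were also both called lower. Over the 11 members called lower, 12 of their 21 most abundant transcripts were lower and 2 were higher, and over the 9 named members called higher, 9 of 18 were higher. These genes were selected by calls from the same libraries, so the direction of their main transcripts is not separate support. The same share over all called genes was not counted.

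The 2 exceptions belonged to MRPS18A and MRPL2, in which 1 of the 2 most abundant transcripts rose while the gene fell. MRPS18A-202, with 6 exons and a coding sequence of 588 bases, fell from 33.5, 22.9 and 25.7 TPM to 4.31, 3.77 and 3.96 TPM. MRPS18A-201, with 5 exons and a coding sequence of 381 bases, rose from 1.77, 1.08 and 1.38 TPM to 13.1, 10.1 and 11.5 TPM. Their log2 fold changes were -2.58 (SE 0.12, edgeR adjusted p 0.000196) and 3.22 (SE 0.15, edgeR adjusted p 0.00022). As a share of the gene, the 6-exon transcript went from 91.2% ± 0.676 to 24.3% ± 1.30 and the 5-exon transcript from 4.67% ± 0.319 to 69.7% ± 0.751 (SD, n = 3 each). The 6-exon transcript, which holds most of the gene's TPM in DMSO, fell by 2.58 on the log2 scale, beside 1.05 for the gene. In MRPL2, MRPL2-208, with 3 exons and a coding sequence of 309 bases, rose from 21.4, 15.6 and 16.3 to 32.4, 27.3 and 31.9 TPM, a log2 change of 0.96 (SE 0.12, edgeR adjusted p 0.00371). Its share went from 26.4% ± 0.175 to 64.8% ± 0.692. MRPL43 and MRPS2, also called lower as genes, had a transcript called higher too, outside the 2 most abundant. The mean share of MRPL43-211 went from 1.91% in DMSO to 37.6% after auxin, and that of MRPS2-205 from 3.9% to 10.6%.

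A transcript called higher and another called lower were found in 9 members, and 5 of these were not called as genes. The share of all genes with calls in both directions was not counted, so this number has no background beside it. The genes were MRPL2, MRPL4, MRPL43, MRPL52, MRPL53, MRPL55, MRPS2, MRPS18A and MRPS24, chosen by this property after the values were seen. MRPL4, the counterpart of bacterial L4, changed by -0.13 (SE 0.08, edgeR adjusted p 0.191, or 0.0473 with the replicate block). Its transcript MRPL4-202, with 10 exons and a coding sequence of 933 bases, went from 79.8%, 82.1% and 82.4% of the gene's TPM to 9.21%, 10.5% and 11.8%. MRPL4-208, with 4 exons and a coding sequence of 357 bases, went from 5.70%, 4.39% and 5.17% to 46.8%, 53.0% and 49.3%. In log2 fold change these were -2.88 (SE 0.13, edgeR adjusted p 0.000192) and 3.35 (SE 0.17, edgeR adjusted p 0.000249).

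In MRPL53, which has no bacterial counterpart, the 3-exon MRPL53-201 fell from 28.4%, 23.4% and 21.1% of the gene to 7.96%, 5.90% and 6.08%. The 2-exon MRPL53-202 rose from 55.0%, 50% and 47.9% to 86.2%, 87.8% and 88.5%. MRPS24 was not called as a gene (edgeR adjusted p 0.213, or 0.00649 with the replicate block). MRPS24-201, with a coding sequence of 501 bases, fell from 87.6% ± 1.64 to 60.6% ± 1.77, and MRPS24-203, with 216 bases, rose from 11.9% ± 1.60 to 38.9% ± 1.74 (SD, n = 3 each). In MRPL55, MRPL55-214 fell from 37.1% ± 4.61 to 3.16% ± 2.47 and MRPL55-217 rose from 16.1% ± 5.73 to 49.2% ± 9.49, and both have a coding sequence of 384 bases. Transcript levels rest on the authors' assignment of reads between transcripts. The posterior SD of these counts was at most 3.26% of the gene's count in MRPL55, 2.02% in MRPS24 and 1.05% in MRPL4 and MRPL53.

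**Figure D4:**
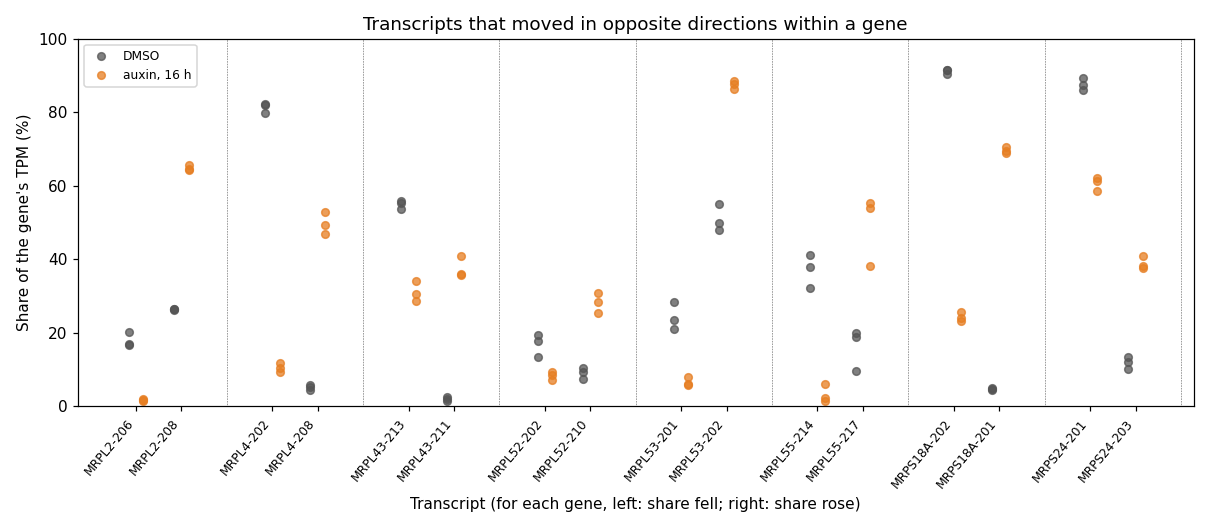
Share of the gene's TPM, in percent, held by the transcript whose share fell most and the one whose share rose most among those called, in 8 members with calls in both directions (MRPS2 is left out because its falling transcript held under 1%). Grey points are DMSO libraries and orange points auxin libraries; in MRPS18A and MRPL4 the falling transcript goes from the largest share to 24.3% and 10.5%.

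Several of these changes can also be stated as lower inclusion of an internal exon. Exon inclusion was computed as the TPM of transcripts that contain an exon, as a percentage of that plus the TPM of transcripts whose intron spans it. It rests on the same transcript TPM as above and is not separate evidence, because no reads across exon junctions were counted. For exon 5 of MRPS18A, inclusion and skipping are the TPM of MRPS18A-202 and MRPS18A-201. This test was added after the data were seen. With limma on the log2 ratio of inclusion to skipping, 9 of 32 member exons tested, in 6 genes, had lower inclusion after auxin and 1 had higher inclusion. Over all 9327 exons tested the shares were 14.5% and 4.25%. Of the 9, 7 have a length that is not a multiple of 3, beside 22 of the 32 member exons tested and 55.5% of all exons tested. Leaving out any 1 library gave 9 lower exons each time.

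The exons called lower by over 10 percentage points are printed, 1 per gene, because they carry this finding. Capitals mark the exon, and the lower-case letters are 12 bases of the exon on either side in the spliced transcript, 5′ to 3′, from the GENCODE transcript sequences on GRCh38.
MRPS18A exon 5, chr6:43675202-43675271, minus strand: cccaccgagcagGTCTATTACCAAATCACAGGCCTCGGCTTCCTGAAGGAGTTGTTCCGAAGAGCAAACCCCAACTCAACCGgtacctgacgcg
MRPL43 exon 2, chr10:100987090-100987196, minus strand: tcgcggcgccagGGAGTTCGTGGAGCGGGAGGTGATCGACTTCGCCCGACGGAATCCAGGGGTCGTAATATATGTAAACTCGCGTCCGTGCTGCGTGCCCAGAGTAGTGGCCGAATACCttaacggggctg
MRPL53 exon 2, chr2:74472358-74472470, minus strand: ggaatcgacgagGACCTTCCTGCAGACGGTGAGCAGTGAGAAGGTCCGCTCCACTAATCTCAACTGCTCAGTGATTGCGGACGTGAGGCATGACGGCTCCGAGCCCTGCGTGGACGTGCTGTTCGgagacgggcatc
MRPL52 exon 2, chr14:22830053-22830110, plus strand: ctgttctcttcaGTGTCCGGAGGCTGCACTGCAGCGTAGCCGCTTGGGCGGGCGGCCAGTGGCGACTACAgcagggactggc
MRPL2 exon 6, chr6:43055545-43055618, minus strand: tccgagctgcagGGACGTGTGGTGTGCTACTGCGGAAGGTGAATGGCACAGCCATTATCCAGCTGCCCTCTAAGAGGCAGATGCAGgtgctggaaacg
All lie within coding sequence, and their lengths are 70, 107, 113, 58 and 74 bases.

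Exon 5 of MRPS18A was included at 95%, 95.5% and 94.9% in DMSO and 24.7%, 27.1% and 25.6% after auxin. The difference was -69.3 percentage points, and the change on the log2 ratio scale was -5.69 (SE 0.13, limma adjusted p 3.23e-05). Exon 2 of MRPL43 was included at 94.6%, 95.7% and 96.5% in DMSO and 41.3%, 40.4% and 45.8% after auxin, a change of -4.79 (SE 0.20, limma adjusted p 9.89e-05). MRPL43-211, the transcript without this exon, has a coding sequence of 132 bases.

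Exon 2 of MRPL53 went from 34.1%, 31.8% and 30.6% to 8.45%, 6.30% and 6.43%, a change of -2.61 (SE 0.18, limma adjusted p 0.000397). Exon 2 of MRPL52 went from 96.0%, 98.8% and 95.3% to 78.2%, 71.7% and 76.9%, a change of -2.95 (SE 0.36, limma adjusted p 0.00322). Both groups of libraries were separate in each of these exons. Neither MRPL53 nor MRPL52 was called as a gene, with log2 fold changes of -0.08 (SE 0.13) and -0.03 (SE 0.08). Exon 2 of MRPL17 was also lower by over 10 points, at 83.5%, 61.4% and 56.7% in DMSO and 52.5%, 41.4% and 39.3% with auxin. Its groups were separate but widely spread, and its limma adjusted p was 0.15, or 0.035 with the replicate block.

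In MRPL2, 4 exons had lower inclusion, and these are not independent because the same transcript, MRPL2-208, skips all of them. Exons 3, 4 and 5 went from 66.1%, 66.0% and 58.0% to 29.6%, 29.5% and 29.3% (means of 3 libraries). Exon 6, which MRPL2-201 also skips, went from 21.8%, 19.1% and 19.8% to 2.67%, 2.44% and 2.35%. Exon 5 of MRPL9, with 102 bases a multiple of 3, fell from 97.2% ± 0.315 to 91.4% ± 1.20 (SD, n = 3 each; limma adjusted p 0.00163). Exon 3 of MRPL22 was the only one with higher inclusion, at 96.7% ± 0.593 and 98.7% ± 0.431 (SD, n = 3 each; limma adjusted p 0.0248). That call was lost without DMSO replicate 2, DMSO replicate 3, auxin replicate 1 or auxin replicate 3.

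The exons with lower inclusion often lay between short introns. Of 7 member exons with both neighbouring introns under 500 bases, 5 had lower inclusion. Over all exons tested, this held for 42.8% of the 897 exons of that kind and for 11.5% of the others. The introns around exon 2 of MRPL43 have 116 and 114 bases, those around exon 2 of MRPL53 have 98 and 105, and those around exon 2 of MRPL52 have 112 and 76. The others of this kind are exons 4 and 5 of MRPL2, which are not independent because the same transcript skips both. The remaining exons with lower inclusion had a longer intron on at least 1 side. Exon 5 of MRPS18A has 222 bases before it and 3295 after it, and exon 5 of MRPL9 has 552 and 551. In MRPL2, exon 3 has 1619 and 110 bases, and exon 6 has 278 and 1058.

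**Figure D5:**
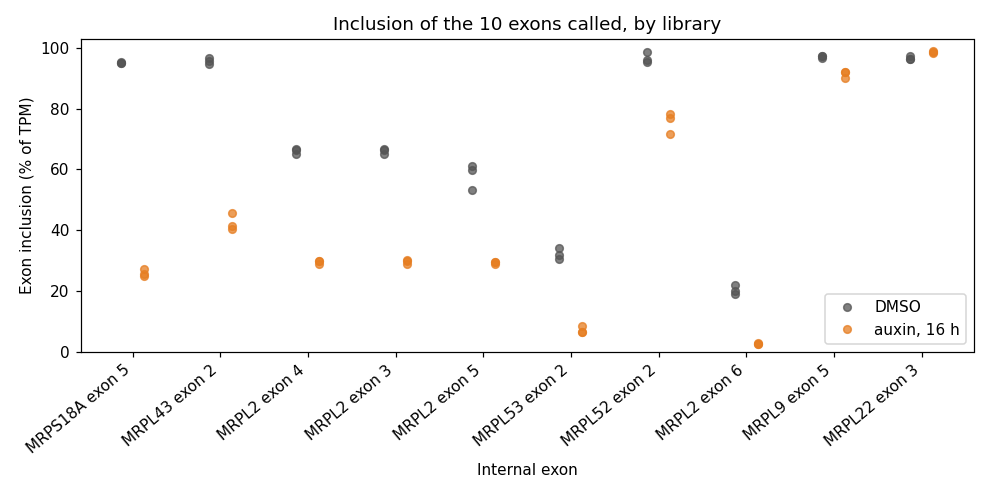
Inclusion, in percent of TPM, of the 10 member exons called, in each DMSO library (grey) and auxin library (orange), ordered by the size of the difference. Exon 5 of MRPS18A goes from between 94.9% and 95.5% to between 24.7% and 27.1%, and the groups are separate in all 10 exons.

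Mitoribosomal proteins that carry other symbols were taken from a list. All 5 were called, beside 25.4% of all genes tested called higher and 26.9% called lower. DAP3, a GTP-binding small subunit protein, and PTCD3, a small subunit protein with RNA-binding repeats, rose by 0.36 (SE 0.12, edgeR adjusted p 0.0336) and 0.49 (SE 0.06, edgeR adjusted p 0.000408). CHCHD1 and AURKAIP1, both of the small subunit, changed by -0.71 (SE 0.07) and -0.56 (SE 0.10), and GADD45GIP1, of the large subunit, by -0.95 (SE 0.09), with edgeR adjusted p of 0.000168, 0.00237 and 0.000149.

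Factors that act on the mitoribosome changed in both directions. Over all genes tested, 25.4% were called higher and 26.9% lower, and 13.3% were called and at least 2-fold lower. Of 28 assembly and ribosomal RNA modification factors, 9 were higher and 9 lower, or 32.1% each (median log2 fold change 0.05). Of the lower ones, 7 were below -1. The lowest were MRM1, a ribosomal RNA methyltransferase, at -3.11 (SE 0.34) and DHX30, an RNA helicase of mitochondrial RNA granules, at -2.05 (SE 0.08). The highest was DDX28, another helicase of large subunit assembly, at 0.85 (SE 0.11). Of 15 mitochondrial translation factors, 9 were higher and 1 lower, or 60% and 6.67% (median 0.34). The one that fell was TUFM, the elongation factor that delivers transfer RNA, at -1.27 (SE 0.06). GUF1, MTIF2 and GFM1, a translation GTPase, the initiation factor and an elongation factor, rose by 0.95, 0.88 and 0.71 (SE 0.07, 0.17 and 0.06). The edgeR adjusted p of these 7 genes ranged from 3.79e-06 to 0.00396.

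Of 16 genes of mitochondrial transcription and RNA processing, 6 were higher and 2 lower (median 0.18), or 11 and 2 with the replicate block. These were 37.5% and 12.5%, beside 25.4% and 26.9% of all genes tested. With the block they were 68.8% and 12.5%, beside 35.5% and 34.4%. The 2 lower genes were POLRMT, the mitochondrial RNA polymerase, at -2.92 (SE 0.20) and ELAC2, which cuts the 3′ ends of transfer RNAs, at -1.52 (SE 0.08). TFAM, which packages mitochondrial DNA, was at -0.02 (SE 0.09, edgeR adjusted p 0.904). Of 10 nuclear regulators of mitochondrial genes, 9 were tested, and 5 were higher and 1 lower (median 0.30), or 6 and 3 with the replicate block. As shares of those tested these were 55.6% and 11.1%, or 66.7% and 33.3% with the block. GABPA, an ETS factor, rose by 0.34 (SE 0.07, edgeR adjusted p 0.00491), MYC rose by 1.27 (SE 0.06, edgeR adjusted p 7.48e-06), and ESRRA changed by -0.82 (SE 0.09, edgeR adjusted p 0.000244). NRF1 and YY1 were at 0.16 (SE 0.10) and -0.12 (SE 0.10), with edgeR adjusted p of 0.211 and 0.354, or 0.025 and 0.015 with the replicate block.

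Cytosolic ribosomal protein genes served as a comparison of similar size. Of 77, 13 were higher and 5 lower, with a median log2 fold change of 0.21. These were 16.9% and 6.49%, beside 25.4% and 26.9% of all genes tested. Their log2 fold changes ran from -0.55 to 0.54, and those of the mitoribosomal genes from -2.85 to 0.79. The quartiles were 0.11 and 0.26 for the cytosolic genes and -0.12 and 0.43 for the mitoribosomal genes. With the replicate block, 61 cytosolic genes were higher and 6 lower, or 79.2% and 7.79%, beside 35.5% and 34.4% of all genes. The difference between the 2 families was not tested.

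Some members share sequence with other genes, which makes their counts less certain. Exonic bases were shared with a gene on the opposite strand by 29 members, 15 of them called, and with a gene on the same strand by 16, 9 of them called. Whether counting used the strand is not given in the sources used here. MRPL2 shares 373 bases with KLC4, which was at 1.35 CPM in DMSO, against 38.9 CPM of MRPL2. MRPL38 shares 1373 bases on the same strand with AC087289.3, at 0.353 CPM in DMSO, and MRPL28 shares 223 with TMEM8A, at 16.2 CPM in DMSO and 4.05 CPM with auxin. MRPL51 shares 486 bases with NCAPD2, whose CPM was 140.3 in DMSO and 78.3 with auxin. MRPS14, at 10.2 CPM in DMSO, shares 351 bases on the opposite strand with CACYBP, at 259 CPM in DMSO and 231 CPM with auxin. MRPL53, at 9.89 CPM in DMSO, shares 608 bases, or 45.2% of its exonic bases, on the same strand with CCDC142. The CPM of CCDC142 was 2.81 in DMSO and 1.99 with auxin. The posterior SD of a member's gene count was at most 0.76% of that count.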

How the data were processed

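Gene and transcript tables of 6 RNA-seq libraries were analysed. Per the file headers, the authors deposited expected counts (estimated read numbers that need not be whole, not normalized) and TPM, an abundance per length scaled to a fixed total, for each gene and transcript, with other columns such as the posterior SD. The submitters' processing notes name bcl2fastq 2.20, STAR and DESeq2 and the build GRCh38; the counting tool, the annotation and the strand setting are not given in the sources used here. All 58780 gene IDs matched GENCODE release 29; 746 other IDs, at most 0.00111% of the counts, were left out.

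Expected counts were rounded and tested with edgeR 4.0.16 in R 4.3.3 (filterByExpr, TMM factors, glmQLFit and glmQLFTest over all genes, Benjamini-Hochberg adjusted p under 0.05); standard errors came from the F statistic. The same fit was run for transcripts. Exon inclusion was tested with limma 3.58.1 on log2((inclusion + 0.1)/(skipping + 0.1)) in TPM, for internal exons with at least 1 TPM of both together in every library and a mean inclusion of 2% to 98%, adjusted over all exons. Each procedure was also run on simulated data, with the outcome not given here. The simulated libraries were independent of each other, and fewer genes were changed than were called in these data. Assignment of reads between transcripts was not simulated.

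Deviations of same-numbered libraries from their group means correlated at 0.65, 0.27 and 0.28 across genes, so the numbers were taken to pair the samples and a replicate block was fitted beside the main test. Auxin replicate 2 correlated slightly better with DMSO replicate 3, at 0.31. The labels call the libraries biological replicates and do not say whether they came from separate cultures; if not, p-values measure only the spread between these samples. The lowest count of a member in any library was 894.

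Members named are the 8 with the largest increases and the 12 with the largest decreases among those called (11 were called lower), the 3 with the highest mean TPM, the MRPS18 paralogs and MRPS36; transcripts named are the 2 most abundant of each. Members, lists and tests were chosen with earlier results of these data known. Alternatives were DESeq2 1.42.0, other scale factors and filters, limma-trend on log2 TPM, the replicate block, GC-corrected offsets and fits without single libraries. The TPM fits used no TMM factors and added 1 or 0.1, which understates changes of low genes. Both constants gave 6 members higher and 6 lower.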

Additional observations from a re-analysis of the deposited data

How the results depend on the processing

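The median log2 fold change of the members kept its sign under all 17 alternatives. It was 0.32 with upper-quartile factors, 0.11 with library size only, 0.18 without a filter, 0.0717 with GC-corrected offsets and 0.0727 with these and the replicate block, 0.0340 and 0.0348 with limma-trend after adding 1 or 0.1 to the TPM, and 0.10 to 0.29 without single libraries (lowest without DMSO replicate 1 at 0.10 and auxin replicate 3 at 0.11). Members called higher numbered 46 with the replicate block, 6 with either TPM fit and 21 to 37 without single libraries. Members called lower numbered 22 with the replicate block, 28 with the block and GC-corrected offsets, 18 with GC-corrected offsets alone, 17 with library size only, 6 with either TPM fit and 9 to 11 without single libraries. Over all genes the block gave 35.5% higher and 34.4% lower, GC-corrected offsets 22.8% and 32.3%, and log2(TPM + 1) 4.92% and 15.0%. The block with GC-corrected offsets called 5783 genes higher and 7875 lower, and library size only 3894 and 5625. On log2(TPM + 0.1) these numbers were 1017 and 3223. Fits without single libraries called 3876 to 4979 genes higher and 4493 to 5575 lower. With the replicate block 78 member transcripts were higher, and 72 with upper-quartile factors. Without single libraries 26 to 40 were higher and 19 to 28 lower. The shares over all transcripts were not counted for these fits. Lower exons numbered 8 to 11 under 11 alternatives added after the data were seen; higher exons numbered 3 with the replicate block, 0 with a mean inclusion of 5% to 95%, and 0 to 1 without single libraries. The correlation with intron length was 0.33 with the most abundant transcript and 0.34 with the longest intron. Direction turned for 5 named genes. With GC-corrected offsets, without and with the replicate block, the log2 fold changes were 0.37 and 0.37 for MRPS26, 0.52 and 0.51 for MRPS2, and -0.0526 and -0.0539 for MRPS18C. For MRPL51 it was 0.0571 with upper-quartile factors, 0.10 without DMSO replicate 3 and 0.14 without auxin replicate 1, with a range of -0.26 to 0.14 without single libraries. For MRPS36 these were 0.0326, 0.0647 and 0.0845, with a range of -0.28 to 0.0845. The cause of these differences was not tested. The lowest count of a member in any library was 894.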
